A study of Drosophila melanogaster with 4 samples.

Results

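The Hox genes of Drosophila melanogaster lie in 2 clusters on chromosome arm 3R, the Antennapedia complex and the bithorax complex, and the regions of H3K27me1 enrichment in adult fly heads were examined here at both. The windows are set by position: in FlyBase Release 5 coordinates, 3R 2480001 to 2830000 (350.0 kb) for the Antennapedia complex and 3R 12480001 to 12810000 (330.0 kb) for the bithorax complex, each with 200 kb on either side. These are 2 windows out of 2756 windows of 350.0 kb and 2758 windows of 330.0 kb that can be laid along 3R in steps of 10 kb. They hold 8 Hox genes, namely lab, pb, Dfd, Scr and Antp in the first and Ubx, abd-A and Abd-B in the second, as the definition of the windows places them. All 8 were found in the gene table.

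The series holds 4 libraries, titled as head nuclei, from wild-type Oregon-R flies labelled as mixed adults. They are 2 libraries of chromatin precipitated with a Millipore antibody against H3K27me1 and 2 Input libraries. Per the labels, adults lived in population cages through a 22-day cycle, sieving isolated their heads, and formaldehyde fixed the chromatin. There is no second genotype, tissue or treatment. Whether the replicates are separate collections of flies is not stated, so the spread between them may be technical. The deposited data are 3 lists of regions that the authors called enriched. They are named clusters below and number 6501 in replicate 1, 6601 in replicate 2, and 9662 in the authors' own list for the replicate set, which is given with no n or SD. The score of each cluster is the authors' value, its scale is not stated in the files, and the read depth behind it is unknown. Head nuclei come from many cell types, and fewer cells with the mark cannot be told apart from less of the mark per cell.

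Monomethylation is one of the methylation states of lysine 27 of histone H3. The same lysine is methylated up to the trimethyl state by E(z), the catalytic subunit of Polycomb repressive complex PRC2. The Hox complexes are the classical targets of Polycomb repression in the fly, and their silent genes are known to carry broad domains of the trimethylated form. Trimethylation was not measured in this series.

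Hox proteins are homeodomain transcription factors that give segments their identity, and the genes lie along the chromosome in the order of the body regions they act in. In the Antennapedia complex, lab acts in the head, pb in the adult mouthparts and Dfd in the jaw segments. Scr acts in the labial and anterior thoracic segments, and Antp in the thorax and its legs. In the bithorax complex, Ubx acts in the posterior thorax and anterior abdomen, abd-A in the abdomen, and Abd-B in the posterior abdomen and genitalia. In the RefSeq gene order (Release 6), 45 genes run from lab to Antp. They include 20 protein-coding genes, among them the homeobox genes zen, zen2, bcd (the anterior determinant of the embryo) and ftz (a pair-rule gene), the cell adhesion gene Ama, and the cuticle genes Edg84A and Ccp84Aa to Ccp84Ag. The microRNA genes mir-993 and mir-10 lie there too. From Ubx to Abd-B there are 17 genes, 6 of them protein-coding, together with the microRNA genes mir-iab-4 and mir-iab-8 and the noncoding RNA gene bxd. Gene coordinates of the release used by the cluster lists were not used here, so single clusters below are given by position and not by gene.

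**Figure D1:**
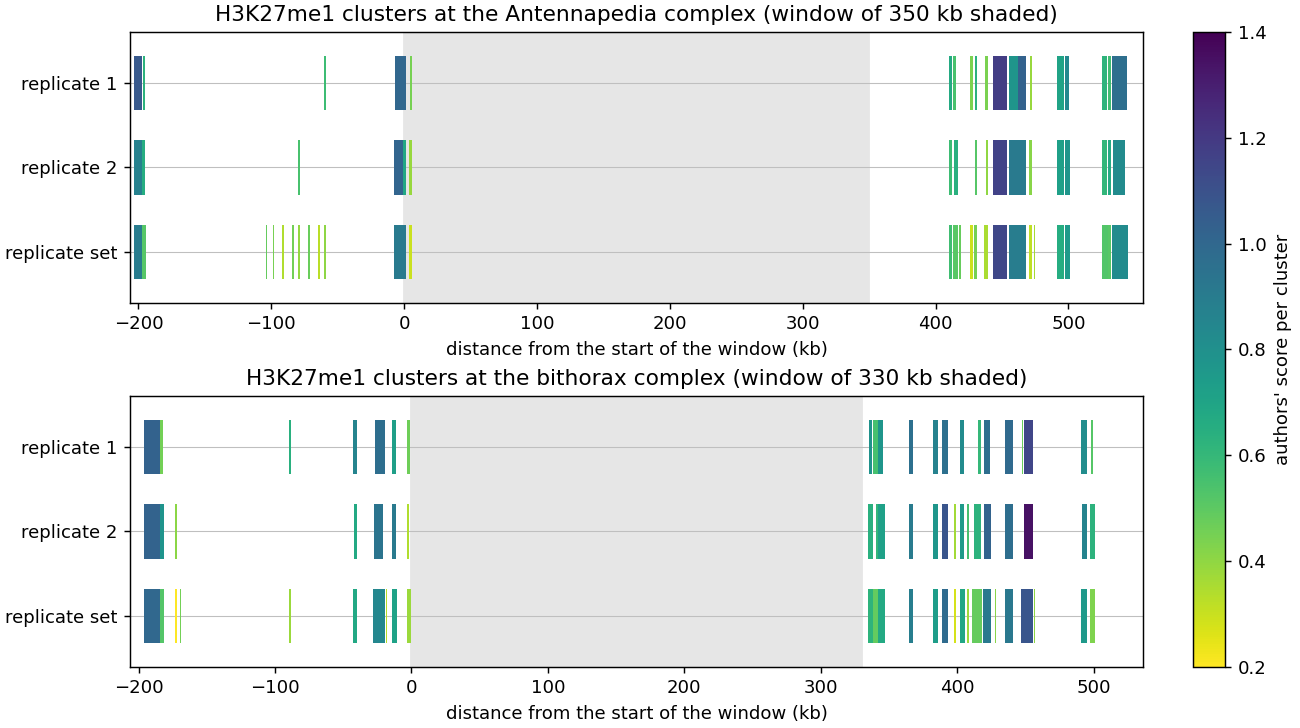
Map of the H3K27me1 clusters at the Antennapedia complex (top) and the bithorax complex (bottom), in kb from the start of each window, for replicate 1, replicate 2 and the authors' replicate-set list; boxes are clusters drawn to scale, colour is the authors' score, and the window is shaded. The bithorax window is empty in all 3 lists, and the Antennapedia window holds clusters only within its first 5.79 kb.

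The bithorax complex held no H3K27me1 cluster. The number of clusters in its window was 0 in replicate 1, 0 in replicate 2 and 0 in the authors' replicate-set list, so on this placement of the window none of Ubx, abd-A and Abd-B lay in an enriched region. At the mean density of 3R, a window of this length would hold 17.6 clusters in replicate 1 and 18.6 in replicate 2. The share of 330.0 kb windows of 3R with no cluster was 0.326% in each of the 3 lists, or 9 of 2758 windows. Of those 9 windows, 8 overlapped the Antennapedia complex and 1 was the bithorax window itself. In these 10 kb steps, none of the 2626 windows that overlap neither complex was free of clusters in any list, and the least covered of them reached 0.408% in replicate 1, 0.214% in replicate 2 and 1.95% in the replicate-set list. This depends on the steps. In steps of 1 kb, 5 of 26238 such windows in replicate 1 and 6 in replicate 2 were free of clusters. The replicate-set list had 0. Those in the replicates all lay between 1834001 and 2169000, near the centromere end of 3R. The Antennapedia window, which starts at 2480001, lies near that end too.

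The Antennapedia complex was nearly empty, and what it held lay at its left end. Replicate 1 had 2 clusters in the window over 2.74 kb, or 0.783% of its length. Replicate 2 also had 2 clusters, over 3.63 kb or 1.04%, and the replicate-set list had 2 over 3.67 kb or 1.05%. The mean covered share was 0.909% ± 0.179 (SD, n = 2), against a median over all 3R windows of this length of 19.4% in replicate 1 and 19.8% in replicate 2. The share of 3R windows covered no more than the Antennapedia window was 0.254% in each of the 3 lists, or 7 of 2756, and all 7 overlapped that window. The share of these windows with no cluster at all was 0.218% in each list, and none of them lay outside the complexes in steps of 10 kb or of 1 kb. In 10 kb steps, the least covered 350.0 kb window elsewhere on 3R reached 1.80% in replicate 1, 1.84% in replicate 2 and 3.72% in the replicate-set list.

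The clusters at the left end of the Antennapedia window were of 2 kinds. One straddled the start of the window. In replicate 1 it ran from 2472851 to 2481312 with a score of 1.00, which was at or above 86.3% of the 3R clusters of that list. Replicate 2 held the same stretch as a pair of clusters, 2472755 to 2479206 with a score of 1.01 and 2479217 to 2481776 with a score of 0.683. The other kind lay inside the window and was narrow and weak. Its bounds were 2484313 and 2485740 in replicate 1 (1428 bp, score 0.444), and 2483919 and 2485768 in replicate 2 (1850 bp, score 0.386). These scores were at or above only 2.14% and 1.08% of the 3R clusters of their lists. In the gene order, lab is the first gene of the complex on this side, preceded by the protein-coding genes agt, twr, CG1307 and Taf1. Which of these genes the clusters touch was not tested. When the window start was moved 10 kb inward, a choice made after seeing the data, no cluster remained in the Antennapedia window in either replicate.

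**Figure D2:**
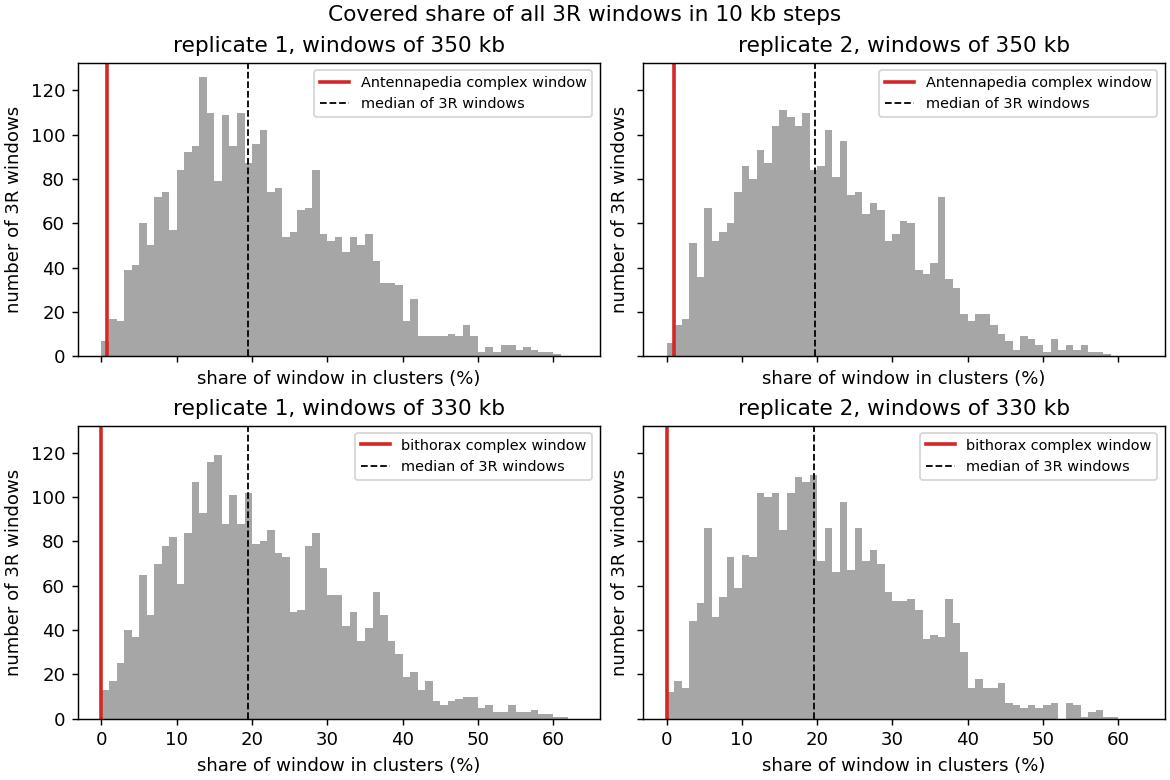
Histograms of the share of each 3R window lying in clusters (x axis, percent), for windows of 350.0 kb (top) and 330.0 kb (bottom) in steps of 10 kb, in replicate 1 (left) and replicate 2 (right); the red line is the complex and the dashed line the median. Both complexes lie at the lower end of the distribution, at 0.783% and 1.04% for the Antennapedia window and 0% for the bithorax window, while the medians are between 19.4% and 19.8%.

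These ranks are descriptions. Windows laid in 10 kb steps overlap their neighbours, clusters of 1 library are not replicates, and with 2 libraries of 1 condition no test across samples exists, so no p-value is given for them.

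The edges of the empty stretches were placed alike by the replicates. The stretch without clusters that takes in the Antennapedia complex spanned 2485741 to 2890116 in replicate 1. In replicate 2 it spanned 2485769 to 2890252. Its left edges were 28 bp apart and its right edges 136 bp apart, and its mean length was 404.4 kb ± 0.0764 (SD, n = 2). It took in 98.4% of the window and went on 60.1 kb past its right end in replicate 1 and 60.3 kb in replicate 2. In the gene order, the next protein-coding genes after Antp are Sodh1, CG1979, dj and djl.

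At the bithorax complex the empty stretch was close to the window itself. It spanned 12478571 to 12815384 in replicate 1. In replicate 2 it spanned 12478225 to 12814489. The edges were 346 bp apart on the left and 895 bp apart on the right, and the mean length was 336.5 kb ± 0.388 (SD, n = 2). With the replicate-set list included, the edges ranged over 1314 bp on the left and 1013 bp on the right. The left edge lay 1.43 kb outside the window in replicate 1 and 1.78 kb outside in replicate 2. The right edge lay 5.38 kb and 4.49 kb outside. The protein-coding genes nearest to the complex in the gene order are modSP, CG14907, Mettl4 and CCT3 before Ubx and VhaM9.7-d, Actn3, AhcyL2 and CG18622 after Abd-B.

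The Antennapedia stretch was the longest without clusters on 3R and the bithorax stretch the next longest, in all 3 lists. The margin of the Antennapedia stretch was wide. That of the bithorax stretch was narrow in the replicates, where the stretch ranked 3 measured 335.5 kb in replicate 1 and 336.2 kb in replicate 2, against 336.8 kb and 336.3 kb. The stretch ranked 3 lay near the centromere end of the arm, as the Antennapedia stretch does, at 1833188 to 2168652 in replicate 1. In the replicate-set list the bithorax stretch measured 334.8 kb and the next one only 218.4 kb. Over the 6 major arms (2L, 2R, 3L, 3R, 4 and X) the Antennapedia stretch ranked 5 in replicate 1, 2 in replicate 2 and 2 in the replicate-set list. The bithorax stretch ranked 12, 10 and 7. Stretches of similar or greater length were therefore present on other arms.

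The 5 other stretches of 3R of 200 kb or more that were empty in the replicates held clusters of the replicate-set list. The complexes held none wholly inside. At 100 kb or more, 12 of 39 other stretches also held none. The authors' replicate-set list is longer than the replicate lists and holds lower scores, with a 10th percentile of 0.357 on 3R against 0.529 in replicate 1 and 0.512 in replicate 2. Whether the lists share a score scale is not stated. Of its 2178 clusters on 3R, 700 overlapped no cluster of either replicate. Stretches of 200 kb or more that were empty in both replicates numbered 7 on 3R. The Antennapedia and bithorax stretches had 0 replicate-set clusters wholly inside them, whereas the 5 others had between 1 and 5, with a median of 2. Clusters that reached in from the edges covered 0.023 kb of the Antennapedia stretch and 1.09 kb of the bithorax stretch. The stretch ranked 3, of nearly the length of the bithorax one, had 4, and its longest part free of replicate-set clusters was 97.9 kb. This comparison was chosen after seeing the data, and the replicate-set list is for the same libraries, so it is not an independent check. The difference was not tested.

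**Figure D3:**
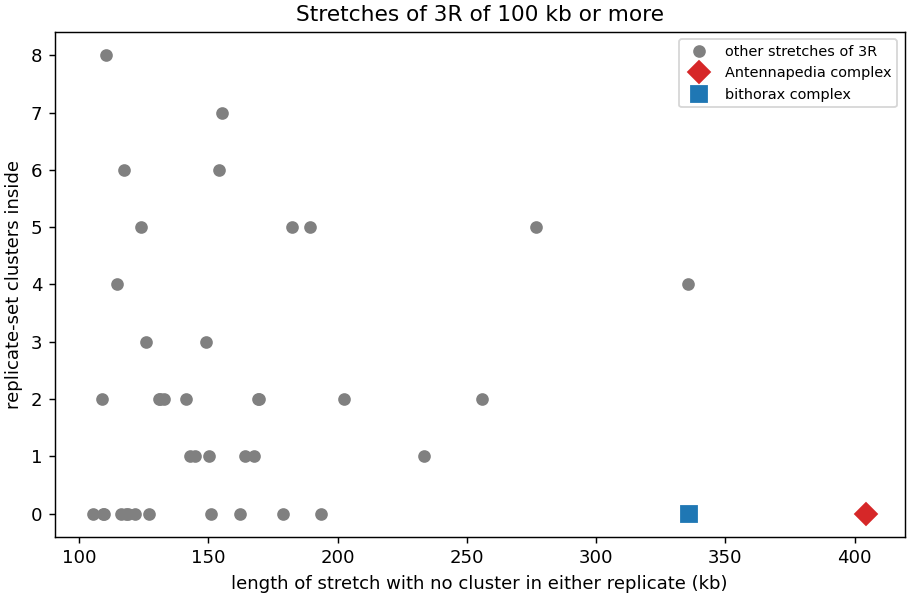
Each point is a stretch of 3R of 100 kb or more with no cluster in either replicate; the x axis is its length in kb and the y axis the number of replicate-set clusters wholly inside it. The complexes, at 404.3 kb and 335.9 kb, have 0, and the 5 other stretches of 200 kb or more have 1 to 5.

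Outside the complexes H3K27me1 clusters were present on all 4 sides, with coverage above that of the arm on the right of both complexes and below it on the left of both. For reference, 3R as a whole was covered to 21.2% in both replicates, and the median 200 kb window to 20.1% in replicate 1 and 20.0% in replicate 2. The left flank of the Antennapedia complex was covered to 6.59% ± 0.12 (SD, n = 2). Its right flank was covered to 28.9% ± 0.317, although its first 50 kb were empty. The left flank of the bithorax complex was covered to 14.9% ± 0.141 and its right flank to 26.9% ± 2.22. Among the 200 kb windows of 3R, the share covered no more than the left Antennapedia flank was 16.2% in both replicates. For the left bithorax flank it was 37.3% in replicate 1 and 35.3% in replicate 2. For the right flanks of both complexes it lay between 63.3% and 70.4% in the replicates. In the replicate-set list the right flanks were nearer to the middle, at 54.6% for the Antennapedia complex and 53.9% for the bithorax complex. The left flanks were at 15.7% and 28.9% there.

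The coverage rose over short distances at the bithorax complex. In the 50 kb nearest to its window, the covered share was 28.3% ± 1.86 (SD, n = 2) on the left and 24.6% ± 1.49 on the right, against 0% in every 50 kb bin inside. Between 50 and 100 kb it was 43.3% ± 7.53 on the right and 1.94% ± 2.75 on the left, where replicate 1 had 1 cluster and replicate 2 had none. On the right of the Antennapedia complex the covered share was 31.8% ± 1.97 between 50 and 100 kb and 50.9% ± 1.61 between 100 and 150 kb. On its left it was 14.4% ± 0.122 in the nearest 50 kb, all of it from the clusters at the window start, and 0% between 100 and 150 kb.

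**Figure D4:**
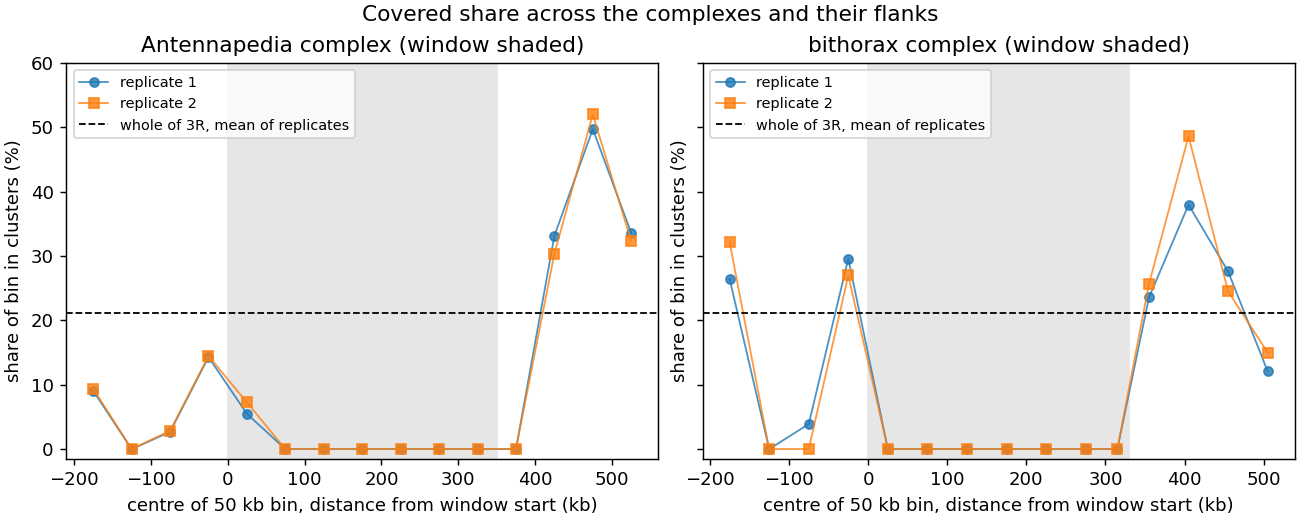
Share of each 50 kb bin lying in clusters (y axis, percent) against the distance of the bin's centre from the window start in kb (x axis), for replicate 1 and replicate 2; the last bin inside the bithorax window is 30.0 kb wide, the window is shaded, and the dashed line is the share of 3R covered, 21.2%. All bins inside the bithorax window are at 0%, and inside the Antennapedia window only the first bin is above 0%.

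To the right of the Antennapedia complex, replicate 1 had 14 clusters and replicate 2 had 12, with median widths of 2695 bp and 3341 bp, against 3R medians of 2918 bp and 2772 bp. The nearest one began at 2890117 in replicate 1 (2167 bp, score 0.671) and at 2890253 in replicate 2 (2006 bp, score 0.579). The highest-scoring one was 2923382 to 2933638 in replicate 1, with a score of 1.19, and 2923456 to 2933894 in replicate 2, with a score of 1.16. It was a broad cluster, 10257 bp and 10439 bp wide, beginning 93.4 kb and 93.5 kb from the window. The widest was 3013019 to 3023787 in replicate 1 (10769 bp, score 0.966). In replicate 2 it was 2935401 to 2948257 (12857 bp, score 0.910), a region that replicate 1 held as a pair of clusters of 6265 bp and 6448 bp.

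The left flank of the Antennapedia complex held few clusters away from the window start. At its far end, both replicates had a cluster that crossed into the flank, 2276368 to 2282409 in replicate 1 (6042 bp, score 1.07) and 2276590 to 2282351 in replicate 2 (5762 bp, score 0.880). Next to it lay a narrower cluster that the replicates shared, 2283217 to 2285337 in replicate 1 (2121 bp, score 0.631) and 2282955 to 2285304 in replicate 2 (2350 bp, score 0.657). Between this cluster and those at the window start, replicate 1 had only 2419650 to 2420981 (score 0.578), which replicate 2 lacked. Replicate 2 had only 2400052 to 2401466 (score 0.547), which replicate 1 lacked. The replicate-set list had 8 narrow clusters in this stretch, from 2375990 to 2420840, with widths of 1013 to 1755 bp and scores of 0.324 to 0.483. Of these, 6 overlapped neither replicate and 2 overlapped 1 replicate. The stretch was nearly empty in both replicates, so little overlap could be found there. For the Antennapedia window with its flanks, 8 of 27 replicate-set clusters (29.6%) overlapped neither replicate, against 32.1% on 3R as a whole.

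Beside the bithorax complex, the cluster nearest to the left edge was narrow and among the lowest-scoring of the arm in both replicates. In replicate 1 it spanned 12476828 to 12478570 (1743 bp, score 0.466), and in replicate 2 it spanned 12476849 to 12478224 (1376 bp, score 0.344). These scores were at or above 3.08% and 0.507% of the 3R clusters of their lists. In the replicate-set list the cluster was wider, at 2749 bp against a 3R median of 2619 bp. Its score there was at or above 16.4% of the 3R clusters. In both complexes, then, the cluster that borders the empty stretch on the left was a weak one in the replicates. This was remarked after seeing the data. Clusters that border other long empty stretches of 3R were not examined, so it is not shown to be particular to the complexes. On the right the bordering clusters were nearer to the middle of the range, at or above 64.1% and 36.8% of 3R clusters beside the bithorax complex. Beside the Antennapedia complex they were at or above 42.0% and 22.95%.

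Farther left, the widest and highest-scoring cluster of the bithorax flank was 12283915 to 12295524 in replicate 1 (11610 bp, score 1.03) and 12284097 to 12295484 in replicate 2 (11388 bp, score 1.02). On the right the widest and highest-scoring cluster was 12928589 to 12935201 in replicate 1 (6613 bp, score 1.15) and 12929139 to 12935522 in replicate 2 (6384 bp, score 1.34). These right-hand scores were at or above 95.2% and 99.1% of the 3R clusters of their lists. In the replicate-set list the cluster was at or above 97.2%. High scores were thus found within 120 kb of a complex that had no cluster itself. This cluster was picked as the highest-scoring of its flank, and the highest scores of other stretches of 3R of that length were not examined.

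The replicates shared most of the flanking clusters. Within the Antennapedia window and its flanks, 17 of 19 clusters of replicate 1 overlapped one of replicate 2, and 17 of 18 in the other direction. Around the bithorax complex the counts were 19 of 21 and 19 of 22. On 3R as a whole the shares were 84.3% and 82.6%. The 8 unshared clusters near the complexes were narrow, from 1332 to 1942 bp. The widths of the unshared clusters elsewhere on 3R were not examined, so this is not shown to be particular to the complexes. Over the clusters that overlapped 1-to-1, the score in replicate 2 minus that in replicate 1 had a median of -0.0344 over 14 pairs at the Antennapedia complex, with an SD of 0.0842 between pairs. At the bithorax complex it was -0.00561 over 19 pairs, with an SD of 0.131.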

How the data were processed

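H3K27me1 in fly heads was measured by chromatin immunoprecipitation and sequencing, with 2 ChIP and 2 Input libraries. The lists of clusters were made by the authors. Per the file headers, they hold regions of significant enrichment on FlyBase Release 5, with 1 score per cluster. Bowtie 0.12.7 is named per the submitters' processing notes. Not given in the sources used here are the caller, its threshold and how the replicate set was formed. The deposited lists hold no read counts, so the depth is unknown and no counting interval is given. Ends past a sequence were set to its length.

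Clusters were counted by an overlap of at least 1 bp, and covered bases were counted once. A cluster across a window edge counts in both parts. Windows of equal length in 10 kb steps along 3R served as the background, complexes included. The named clusters are those in the windows and, per flank and list, the nearest, the widest and the highest-scoring; others were picked after their values were seen. Counting was tested on simulated data. Python 3.11.15, numpy 2.4.6, pandas 2.3.3 and matplotlib 3.10.9 were used. Members and lists were chosen with earlier results of these data known. The gene table (RefSeq, Release 6) served for names and order only. Planned descriptions of promoter motifs and homeodomains were not made, and no sequence was used here.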

Additional observations from a re-analysis of the deposited data

How the results depend on the processing

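The bithorax window held no cluster in the replicate-set list either. The upper 50% by score, midpoints and leaving out a replicate could only give 0 there and tested nothing. Its covered share, 0%, rose to 3.90% only when the window was widened by 20 kb at each end, which takes in flanking clusters. The Antennapedia window, at 0.909%, was at 0.187% (0.500 clusters on average, of 2.00) in the upper 50% by score, at 0% (0 clusters) when narrowed by 20 kb at each end or started 10 kb later, and at 2.66% when widened.

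The share of windows covered no more than the Antennapedia window, 0.254%, was 0.417% in the upper 50% by score, 0.543% narrowed, 0.799% widened, 0.240% in 1 kb steps, 0.181% in 50 kb steps, 0.274% past the first 2 Mb of 3R, 0.989% over 2L, 2R, 3L, 3R and X, 0% among windows that overlap neither complex, and 0.00382% among these in 1 kb steps. For the bithorax window, 0.326%, the values in the same order were 0.616%, 0.815%, 2.32%, 0.315%, 0.362%, 0.352%, 0.562%, 0% and 0.0210%, so the 0% depends on the 10 kb steps. The comparisons with windows outside the complexes and the later start were chosen after seeing the data.

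Both flanks together were covered to 17.7% at the Antennapedia complex. This became 12.1% in the upper 50% by score, 18.1% with gaps under 1000 bp merged, 22.8% in the replicate-set list, 12.2% for flanks of 100 kb and 18.4% for flanks of 400 kb. At the bithorax complex, 20.9% became 15.7%, 26.3% in the replicate-set list, 24.5% for 100 kb and 18.6% for 400 kb. With 2 replicates, leaving out 1 gives the value of the other, as printed per replicate above, and shows no stability.

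No paired analysis was possible because no test between groups was made here, and no list of an Input library was used. Absence of a cluster says that no region passed the authors' threshold at an unknown depth, not that the mark is absent. Whether reads align uniquely across the complexes was not tested.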

Other observations

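Apart from the Hox complexes, 39 stretches of 3R of 100 kb or more had no cluster in either replicate. In 12 of them the replicate-set list had no cluster wholly inside either, and the longest of these measured 193.7 kb, from 22084519 to 22278242. Such stretches were therefore not confined to the Hox complexes, but the others of this kind on 3R were shorter.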
